A study of Mus musculus with 6 samples.

Results

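The transcripts described here are those of 10 heat-shock chaperone genes, measured in CD45+ cells of the mesenteric lymph node (mLN, which drains the intestine) and of the spleen. CD45, the product of Ptprc, is carried by nearly all leukocytes. The genes were chosen by symbol, matched through GENCODE M21, and were 10 of the 55487 genes listed for each library. They fall into 5 stress-inducible cytosolic chaperones (Hspa1a, Hspa1b, Hsph1, Dnajb1 and Hsp90aa1), 3 constitutive cytosolic chaperones (Hspa8, Hsp90ab1 and Dnaja1) and 2 mitochondrial chaperonins (Hspd1 and Hspe1). Inducibility was not measured here, and the class names do not mean that genes of the other classes are free of a stress response. All 10 genes passed the filter on low counts. There were 3 mLN and 3 spleen libraries of polyA RNA, all from wild-type C57BL6/J mice and from cells labelled total hematopoietic and freshly prepared. The labels give neither age nor sex, and name no treatment other than the fresh preparation. Whether each replicate was another mouse is not said either. The p-values below therefore describe only how far these libraries scatter, and that scatter may be technical.

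Heat-shock proteins bind unfolded protein and help it fold or refold. HSP70 proteins work with J-domain partners, which deliver clients and stimulate the HSP70 ATPase, and with HSP110 proteins, which exchange the nucleotide, while HSP90 acts later on selected clients such as kinases and steroid receptors. The inducible genes are switched on by the transcription factor HSF1 when proteins unfold, after heat, oxidative stress or rough handling of cells, whereas their constitutive relatives are made at all times in large amounts. In the mitochondrial matrix HSP60 (Hspd1) forms a barrel and HSP10 (Hspe1) its lid. In lymphocytes the inducible HSP70 genes are also known to respond to activation and to tissue dissociation.

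Libraries held 12584244 to 18119551 expected counts. CPM are counts scaled to library size with TMM factors. The leukocyte list (Ptprc, Coro1a, Laptm5, Cd53 and Cd52) summed to 6279 to 6394 CPM in mLN and 5356 to 5402 CPM in spleen. Of the 10 stromal markers only Pdpn and Pdgfra had 0 counts in all 6 libraries, 5 were tested and 2 were lower in mLN. The stromal list summed to 212 to 233 CPM in mLN and 212 to 218 CPM in spleen. Pan-T markers summed to 3904 to 3949.9 CPM in mLN and 1698 to 1708 CPM in spleen, and all 12 were higher in mLN. Pan-B markers summed to 3756 to 3825 CPM in mLN and 6485 to 6651 CPM in spleen, and all 10 were lower. All erythroid and neutrophil markers were lower in mLN too, with sums of 18.8 to 25.5 CPM against 2331 to 2442 CPM in spleen and of 1.57 to 2.83 CPM against 1426 to 1458 CPM in spleen. The part of this difference in cell make-up in the values below was not tested. In bulk RNA, fewer cells of a type and less RNA per cell cannot be told apart.

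The binding site of HSF1 is built from inverted repeats of the letters GAA. The 250 bases before the start of Hspa1a and of Hspa1b (RefSeq, GRCm38.p6) are shown because these genes gave the largest differences. Capitals mark GAANNTTC, searched on both strands, as was TTCNNGAA, with overlaps counted. Each of these motifs reads the same on both strands.
Hspa1a, chr17:34972157-34972406, minus strand: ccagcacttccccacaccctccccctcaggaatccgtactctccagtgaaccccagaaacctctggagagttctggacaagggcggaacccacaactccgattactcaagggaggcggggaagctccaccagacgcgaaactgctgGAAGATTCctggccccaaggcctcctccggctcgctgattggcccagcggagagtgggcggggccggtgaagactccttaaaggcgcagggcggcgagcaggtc
Hspa1b, chr17:34959239-34959488, minus strand: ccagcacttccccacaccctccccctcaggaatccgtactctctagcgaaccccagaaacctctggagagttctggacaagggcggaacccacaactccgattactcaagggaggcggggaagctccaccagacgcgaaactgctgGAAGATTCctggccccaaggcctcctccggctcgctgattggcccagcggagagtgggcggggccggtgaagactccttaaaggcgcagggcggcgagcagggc
These windows differed at 3 of 250 bases, and the motif began 104 bases before the start in each. GAANNTTC stood in 6.69% and TTCNNGAA in 7.17% of the 32851 mouse promoter windows of this length.

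Shorter stretches around the motif are shown for Hsph1, Dnaja1 and the chaperonin pair, to compare the other genes that have a window in the same table. Capitals again mark GAANNTTC or TTCNNGAA.
Hsph1, chr5:149636356-149636375, minus strand: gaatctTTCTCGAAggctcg
Dnaja1, chr4:40722338-40722357, plus strand: cctctaGAAAATTCtacgag
Hspe1, chr1:55088053-55088082, plus strand: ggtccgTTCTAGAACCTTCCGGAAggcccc
The Hspe1 element holds 3 of these motifs in overlap, 1 GAANNTTC and 2 TTCNNGAA. A run of at least 3 alternating units, GAANNTTC overlapped by TTCNNGAA or the reverse, stood in 153 windows, or 0.466%. It lies between the annotated starts of Hspe1 and of a shorter Hspd1 transcript, whose own window holds the same bases on the other strand, but not in the window before the other Hspd1 start. Neither Dnajb1 window held either motif, nor did the Dnaja1 windows chr4:40722672-40722921 and chr4:40722680-40722929. GAANNTTC or TTCNNGAA stood in 12.8% of the 32851 mouse promoter windows. A match is a description of these letters only, and no match says nothing about HSF1. Hsp90aa1, Hspa8 and Hsp90ab1 are named here without a window.

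Of the 10 chaperone genes, 8 were higher in mLN than in spleen and 0 were lower, with Hsp90aa1 and Hspd1 not called. By class, 4 of 5 inducible, 3 of 3 constitutive and 1 of 2 mitochondrial genes were higher. Among all 14427 genes tested, 45.5% were called, 21.8% higher and 23.8% lower, by edgeR's quasi-likelihood test at an adjusted p under 0.05. Among the 3005 genes at or above the mean CPM of Hspe1, the lowest of the 10 on that scale, which is not corrected for length, 43.4% were called higher and 22.8% lower. The median log2 fold change (mLN over spleen) was 0.39 for the 10 genes, 0.064 for those 3005 genes and -0.0018 for all genes tested. With a coefficient of variation of 0.2 assumed between libraries, in place of the common value of 0.055 that edgeR estimated, 2 of the 10 genes (Hspa1a and Hspa1b) were called higher, beside 6.47% of all genes. The 3 mLN libraries lay above the 3 spleen libraries in CPM in the same 8 genes, while 52.9% of all genes had ranges that did not overlap and 25.5% had mLN above.

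**Figure D1:**
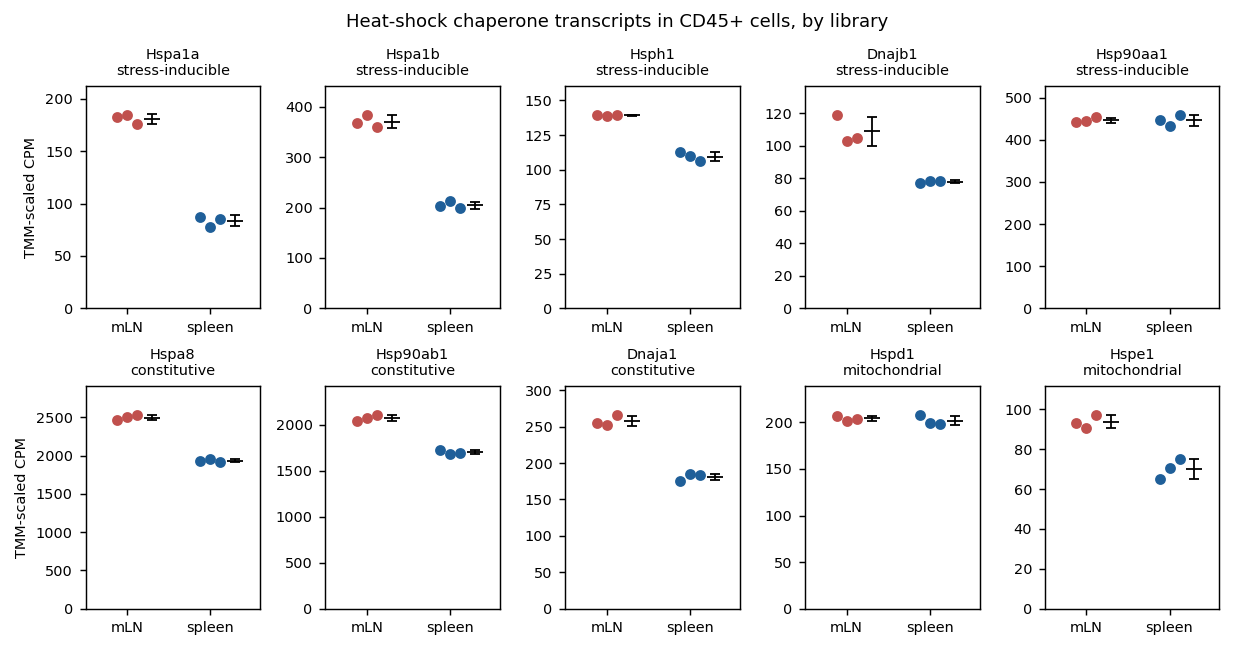
TMM-scaled CPM (vertical axes, from 0) of each chaperone gene in the 3 mLN libraries (red) and the 3 spleen libraries (blue), with the mean and SD of each tissue in black. The tissues do not overlap in 8 genes, whereas the points of Hsp90aa1 and Hspd1 lie at the same height in both tissues.

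Hspa1a and Hspa1b, neighbouring intronless genes on chromosome 17 that encode the inducible HSP70, differed most. Hspa1a (ENSMUSG00000091971, 34969190 to 34972156, GRCm38) stood at 182, 185 and 175 CPM in the mLN libraries and at 87.3, 77.5 and 85.7 CPM in the spleen libraries. Hspa1b (ENSMUSG00000090877, 34956436 to 34959238) stood at 367, 384 and 360.1 CPM in mLN and at 202, 213 and 198 CPM in spleen. Every mLN library lay above every spleen library in both genes. Hspa1a rose 2.17-fold (95% interval 2.04 to 2.30, edgeR adjusted p = 2.41e-24) and Hspa1b 1.81-fold (1.73 to 1.90, edgeR adjusted p = 2.58e-24). These log2 fold changes, 1.11 and 0.86, lay at the 96.6th and 94.7th percentile of all genes tested.

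The split between the copies is uncertain, because most of their length cannot be told apart. Their coding sequences, of 1926 and 1929 bases in GENCODE M21, were 99.4% identical, with 8 substitutions, all at codon position 3, and 1 gap of 3 bases. The longest stretch with no difference ran over 638 bases, from 157 to 794 of the Hspa1a coding sequence counted from the first base of its start codon. The 3′ untranslated regions, of 810 and 643 bases, were 48.1% identical. The last 90 coding bases are shown to give the scale of the differences that can assign a read, with the differing bases in capitals.
Hspa1a: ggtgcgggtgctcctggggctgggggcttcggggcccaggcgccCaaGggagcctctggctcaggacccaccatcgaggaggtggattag
Hspa1b: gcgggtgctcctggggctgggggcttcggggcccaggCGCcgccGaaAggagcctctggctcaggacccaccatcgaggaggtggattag
The substitutions here are C1881G and G1884A (Hspa1a base, its coding position, Hspa1b base), and Hspa1b carries the additional 3 bases.

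The sum of the copies does not depend on that split. It came to 549.5, 568 and 535 CPM in mLN and to 289, 290.0 and 284 CPM in spleen. All mLN libraries were above all spleen libraries, and the sum was 1.92-fold higher in mLN (95% interval 1.837 to 1.997, edgeR adjusted p = 2.37e-27 over 14426 genes). Hspa1a made up 31.5 ± 0.350% of the summed TPM (transcript abundance corrected for length) in mLN and 27.8 ± 1.94% in spleen (SD, n = 3 each). The TPM ratio of Hspa1a to Hspa1b was lowest in spleen replicate 2, at 0.343 against 0.406 in each of the other spleen libraries. Gm20481, annotated on the opposite strand across 2225 bases of Hspa1a, had 0 counts in both tissues.

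Hsph1 encodes HSP110, the nucleotide exchange factor of HSP70 (ENSMUSG00000029657, chromosome 5, 149614287 to 149636376). It stood at 139, 139 and 139.6 CPM in mLN and at 112, 109.7 and 106 CPM in spleen, a 1.27-fold rise (95% interval 1.1999 to 1.346, edgeR adjusted p = 2.03e-09). Dnajb1 encodes an inducible J-domain partner of HSP70 (ENSMUSG00000005483, chromosome 8, 83608193 to 83612653). Its values were 119, 103 and 105 CPM in mLN and 77.0, 78.7 and 78.5 CPM in spleen, and it rose 1.40-fold (1.298 to 1.503, edgeR adjusted p = 2.31e-10). Replicate 1 was the highest mLN library for Dnajb1, and without it the log2 fold change was 0.41 instead of 0.48.

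Hsp90aa1, the inducible HSP90 gene, was not called (ENSMUSG00000021270, chromosome 12, 110690605 to 110702728). It stood at 442, 444 and 453 CPM in mLN and at 447, 432 and 459 CPM in spleen, and the spleen values enclosed those of mLN. The fitted ratio of mLN to spleen was 1.00 with a 95% interval of 0.961 to 1.04 (edgeR adjusted p = 0.975), so that a change of the size seen in Hsph1 lay outside the interval. Its effective length, which follows the transcripts in use, averaged 1716 bases in mLN and 1866 bases in spleen, and with that length entered in the fit its log2 fold change was 0.12 (adjusted p = 0.173 in edgeR).

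The constitutive cytosolic genes were all higher in mLN. Hspa8, which encodes HSC70 (ENSMUSG00000015656, chromosome 9, 40800984 to 40810087), stood at 2460.3, 2501 and 2531 CPM in mLN and at 1931, 1951 and 1913 CPM in spleen. It rose 1.29-fold (95% interval 1.26 to 1.33, edgeR adjusted p = 1.13e-18). Hsp90ab1, the constitutive HSP90 gene (ENSMUSG00000023944, chromosome 17, 45567775 to 45573271), stood at 2039, 2072 and 2103 CPM in mLN and at 1722, 1684 and 1697 CPM in spleen. It rose 1.22-fold (1.18 to 1.26, edgeR adjusted p = 1.41e-14). The J-domain gene Dnaja1 (ENSMUSG00000028410, chromosome 4, 40722150 to 40737149) stood at 255, 252 and 266 CPM in mLN and at 176, 184 and 183 CPM in spleen. Its rise of 1.42-fold (1.35 to 1.49, edgeR adjusted p = 2.81e-16) overlapped in interval with that of the inducible Dnajb1. No spleen library reached an mLN library in any of the 3 genes. Dnaja1 overlaps Smu1 on the opposite strand by 608 bases at its 3′ end, and reads from there cannot be assigned without the strand setting of the counting, which is not given in the sources used here.

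**Figure D2:**
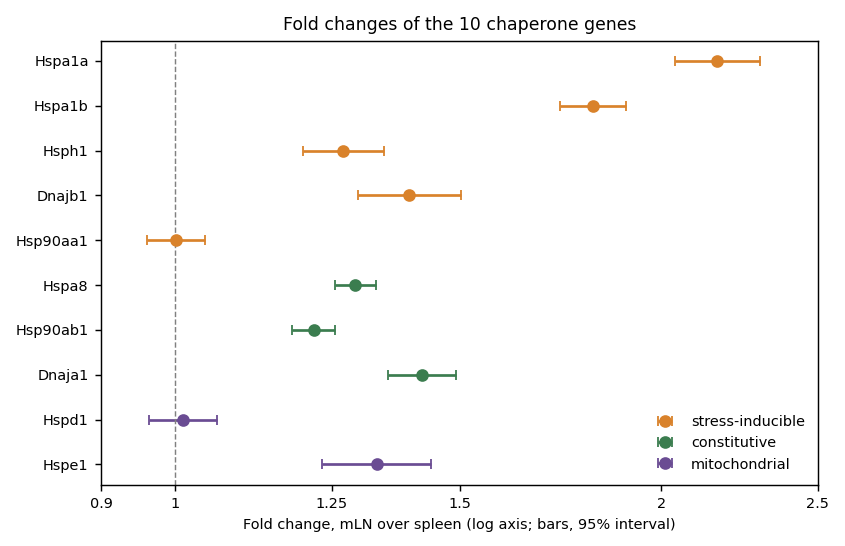
Fitted fold change of each chaperone gene, mLN over spleen (log axis), with its 95% interval, coloured by class. Hspa1a and Hspa1b lie furthest to the right at 2.17 and 1.81, the remaining called genes lie between 1.22 and 1.42 whatever their class, and the intervals of Hsp90aa1 and Hspd1 include 1.

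The 2 chaperonin genes start next to each other and are read in opposite directions. Hspd1 (ENSMUSG00000025980, chromosome 1, 55077835 to 55088243) and Hspe1 (ENSMUSG00000073676, 55088132 to 55091307) overlap in annotation by 112 bases. Here too, reads from the overlap cannot be assigned without the strand setting. The effective length of Hspe1 averaged only 582 bases in mLN and 567 bases in spleen. Hspe1 stood at 93.2, 90.6 and 97.1 CPM in mLN and at 65.1, 70.4 and 75.1 CPM in spleen, with no overlap, and rose 1.33-fold (95% interval 1.23 to 1.44, edgeR adjusted p = 3.47e-08). Hspd1 stood at 207, 202 and 204 CPM in mLN and at 208, 199 and 198 CPM in spleen, and these ranges overlapped. The fitted ratio of Hspd1 was 1.01 (0.963 to 1.06, edgeR adjusted p = 0.745), and its interval did not reach that of Hspe1. Processed pseudogenes of Hspd1 and Hspe1 held at most 80 counts over the 6 libraries.

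Per transcript length, the 10 genes together made up 4884, 5004 and 5100.3 TPM in mLN and 3988, 4006 and 4016 TPM in spleen. Hspa8 (2130.0 ± 104 TPM in mLN and 1701 ± 35.4 TPM in spleen, SD, n = 3 each) and Hsp90ab1 (1421 ± 18.8 TPM in mLN and 1162 ± 9.46 TPM in spleen) were the most abundant in both tissues, followed by Hsp90aa1 (375 ± 15.1 TPM in mLN and 356 ± 35.6 TPM in spleen). Dnajb1 was the least abundant, at 56.5 ± 4.66 TPM in mLN and 41.8 ± 0.612 TPM in spleen. Between these ends the order changed with tissue. In mLN it ran Dnaja1, Hspe1, Hspa1b, Hspd1, Hspa1a and Hsph1, and neighbours overlapped in range only for Hspa1a and Hsph1. In spleen it ran Hspe1, Dnaja1, Hspd1, Hspa1b, Hsph1 and Hspa1a, and neighbours overlapped for Hspe1 with Dnaja1 and for Hspa1a with Dnajb1. Hspa1b thus stood above Hspd1 in mLN (206 ± 6.71 against 139 ± 3.03 TPM) and below it in spleen (117 ± 4.13 against 145 ± 6.20 TPM). The places of Hspa1a and Hspa1b rest on the uncertain split between the copies. Their sum, which does not depend on that split, stood above Hspd1 in both tissues (300 ± 9.03 TPM in mLN and 162 ± 1.64 TPM in spleen).

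Ratios between paired transcripts do not depend on how libraries are scaled. The TPM ratio of the inducible HSP70 genes (Hspa1a plus Hspa1b) to the constitutive Hspa8 was 0.149, 0.142 and 0.133 in mLN and 0.0944, 0.0954 and 0.0968 in spleen. All mLN libraries were higher, and the ratio of tissue means was 1.48. The ratio of the inducible Hsp90aa1 to the constitutive Hsp90ab1 went the other way, at 0.272, 0.253 and 0.265 in mLN and 0.284, 0.294 and 0.342 in spleen, again with no overlap. The ratio of Dnajb1 to Dnaja1 overlapped between tissues (0.224 ± 0.0182 in mLN and 0.234 ± 0.0180 in spleen, SD, n = 3 each), as did that of Hsph1 to Hspa8 (0.0432 ± 0.00288 in mLN and 0.0430 ± 0.00241 in spleen). For the chaperonin, Hspd1 over Hspe1 was 0.617, 0.613 and 0.579 in mLN and 0.887, 0.765 and 0.729 in spleen. Averaged over genes, the inducible class lay 1.16 ± 0.0434 log2 units under the other 5 genes in mLN and 1.40 ± 0.0277 under them in spleen, a difference of 0.24. Within the inducible class the log2 fold changes were 1.11 for Hspa1a, 0.86 for Hspa1b, 0.35 for Hsph1, 0.48 for Dnajb1 and 0.0013 for Hsp90aa1. In the other 5 genes they ran from 0.016 (Hspd1) to 0.51 (Dnaja1). Only the near-identical copies Hspa1a and Hspa1b lay above all of these, so the class difference is not a trait of the whole class. These ratios were not tested.

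**Figure D3:**
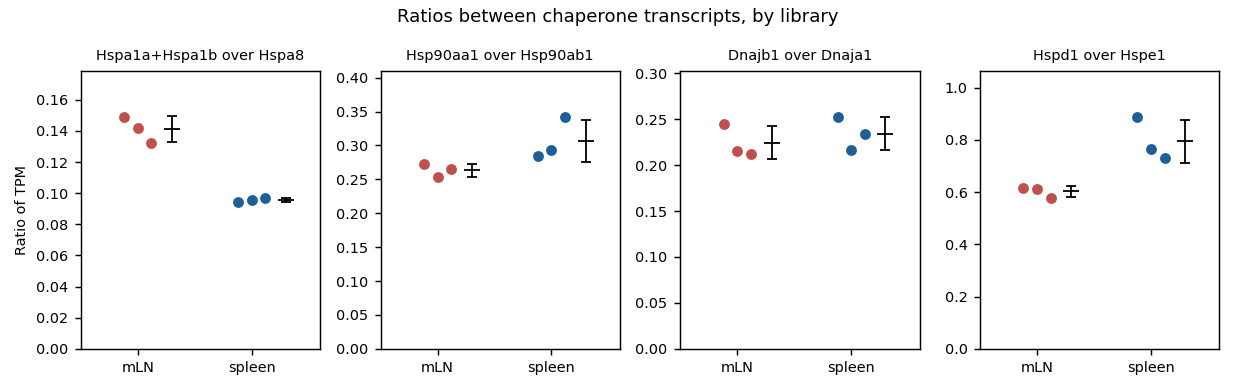
Ratios of TPM between related chaperone transcripts in each mLN library (red) and spleen library (blue), with mean and SD in black; axes start at 0. The HSP70 ratio is 0.133 to 0.149 in mLN and 0.0944 to 0.0968 in spleen, the HSP90 and chaperonin ratios are lower in mLN, and the J-domain ratio overlaps.

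The rest of the chaperone network, 124 genes in 8 lists, held calls in both directions. Of its 111 tested genes 28 were higher and 21 lower in mLN, beside 21.8% and 23.8% of all genes tested, shares near those of the network, and the median log2 fold change was 0.0010. Scaled by library totals only, the network had 22 higher and 27 lower, and over all genes 39.2% of the calls were higher, against 47.8% with TMM. With the assumed coefficient of variation of 0.2 it had 1 higher and 7 lower. Hsf1, the master regulator of the heat-shock response, stood at 78.6 ± 2.70 CPM in mLN and 71.8 ± 2.43 CPM in spleen (log2 fold change 0.13, edgeR adjusted p = 0.0476). That call was lost in 10 of 15 alternatives, among them those without mLN replicate 2 (0.10), spleen replicate 2 (0.12) or spleen replicate 3 (0.11). Hsf2, a related factor, stood at 13.8 ± 0.602 CPM in mLN and 10.3 ± 1.75 CPM in spleen (0.42, edgeR adjusted p = 0.0123), a call lost without spleen replicate 1 or 3 (0.34 and 0.37). Hsf4 and Hsbp1 were not called.

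The counts of the separate lists stand beside the same 21.8% higher and 23.8% lower of all genes, and beside 43.4% and 22.8% of the genes at or above the CPM of Hspe1. Among co-chaperones of HSP70 and HSP90, 7 of 23 were higher and 1 lower (median 0.06). Fkbp5, an HSP90-bound immunophilin, rose by 0.34 on the log2 scale and Chordc1, an HSP90 co-chaperone, by 0.30, while Bag2 had a log2 fold change of -1.95 at 1.55 ± 0.748 CPM in mLN and 6.21 ± 0.353 CPM in spleen. Of the cytosolic chaperonin and prefoldin genes 7 of 14 were higher and 0 lower (median 0.11), the largest being Cct8 (0.25) and Cct3 (0.21), both ring subunits. Of the other J-domain genes 7 of 32 were higher and 5 lower (median -0.03), among them Dnajc15 (0.84), Dnaja4 (0.45), Dnajc6 (-0.97) and Dnajc25 (-0.76). Both that fell were low, Dnajc6 at 1.65 ± 0.842 CPM in mLN and 3.21 ± 0.462 CPM in spleen, Dnajc25 at 6.87 ± 0.606 and 11.6 ± 0.431 CPM. Dnajc6 lost its call without mLN replicate 2 (-0.61), spleen replicate 1 (-0.997) or spleen replicate 2 (-0.85), and with the effective-length offset (-0.95), which also ended the call of Dnajc25 (-0.49). Other HSP70 genes had 0 of 7 higher and 3 lower (median -0.09), with Hspa2 at -1.27 and Hspa12a at -0.47. Hspa12a lost its call without mLN replicate 1 (-0.42), mLN replicate 2 (-0.35), spleen replicate 1 (-0.34) or spleen replicate 3 (-0.48) and with DESeq2 (-0.46), and stood at -0.74 with the offset. Of 9 small heat-shock protein genes only Hspb6 passed the filter, and it was not called (2.35 ± 0.378 CPM in mLN and 3.45 ± 0.482 CPM in spleen).

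Chaperones of the endoplasmic reticulum (ER), which fold secreted proteins, were mostly lower or not called. Of 16 tested genes 10 were lower in mLN and 2 higher, beside 23.8% lower and 21.8% higher among all genes tested, and the median log2 fold change was -0.16. Pdia4, a disulfide isomerase, stood at 169 ± 0.234 CPM in mLN and 281 ± 3.37 CPM in spleen (-0.74, edgeR adjusted p = 3.40e-22), and Creld2 at -0.66. Hsp90b1, the ER relative of the HSP90 genes and chosen here after its values were seen, stood at 635, 636 and 608 CPM in mLN and 815, 787 and 804 CPM in spleen (-0.36, edgeR adjusted p = 6.12e-15), opposite in sign to Hsp90ab1. Dnajc3 (0.38) and Pdia3 (0.13) were the genes that rose. Plasma-cell markers, of cells rich in ER, summed to 404 to 422 CPM in mLN and 1072 to 1082 CPM in spleen, with all 7 lower in mLN, and their part in the ER result was not tested. Mitochondrial proteostasis genes other than the chaperonin had 3 of 14 higher and 2 lower (median -0.06). Hspa9, the mitochondrial HSP70, rose by 0.25 and Clpb by 0.31, whereas the proteases Htra2 and Lonp1 had log2 fold changes of -0.72 and -0.19. Clpb lost its call without mLN replicate 3 (0.23), spleen replicate 1 (0.27) or spleen replicate 3 (0.28) and with the effective-length offset (0.25). All 12 cell cycle markers were lower in mLN, with sums of 759 to 792 CPM against 1348 to 1391 CPM in spleen.

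**Figure D4:**
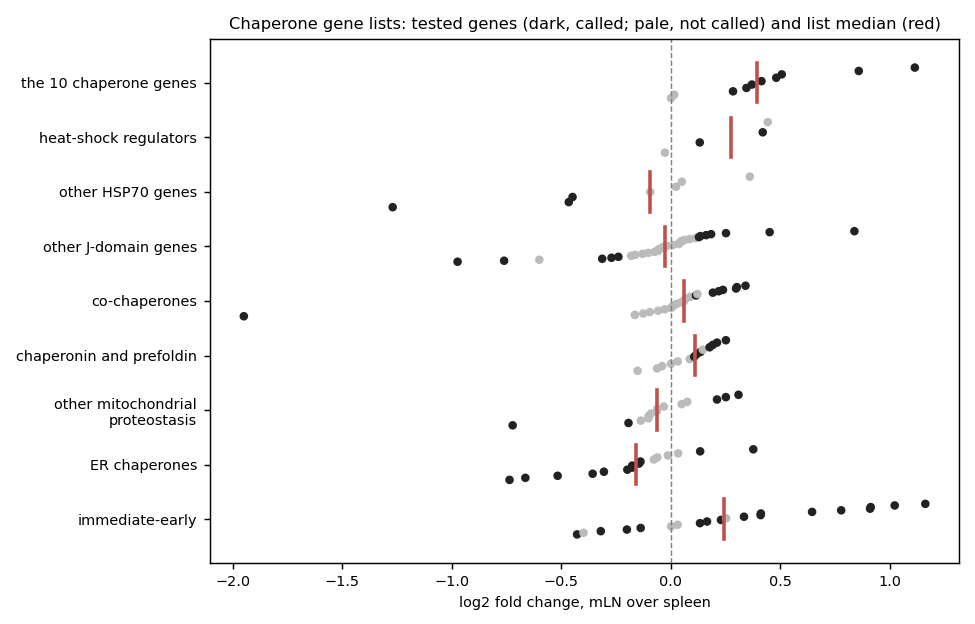
Log2 fold change, mLN over spleen, of each tested gene in the chaperone lists and the immediate-early list (dark points called at adjusted p under 0.05, pale points not called), with the median of each list in red. Small heat-shock genes are not drawn. The 10 chaperone genes have a median of 0.39, ER chaperones lie mostly left of 0 with a median of -0.16, and immediate-early genes reach 1.16.

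Immediate-early genes are switched on within minutes when cells are stimulated or dissociated. With chaperones left out, 12 of 20 were higher in mLN and 4 lower, beside 21.8% and 23.8% of all genes. Among genes at or above the CPM of Hspe1 the shares were 43.4% and 22.8%. The median log2 fold change of the immediate-early list was 0.24. With the assumed coefficient of variation of 0.2, 6 were higher and 0 lower, beside 6.47% of all genes higher. The list summed to 3439 to 3537 CPM in mLN and 2723 to 2830.4 CPM in spleen. Fosb, an AP-1 subunit, stood at 81.8 ± 4.79 CPM in mLN and 36.5 ± 3.24 CPM in spleen (1.16), and Socs3, a feedback inhibitor of cytokine signalling, rose by 1.02. Nr4a1 and Klf4 had log2 fold changes of -0.43 and -0.32. Nr4a1 lost its call with the effective-length offset (-0.20), and Klf4 with the offset (-0.49), with DESeq2 (-0.32) and without mLN replicate 1 (-0.25), mLN replicate 2 (-0.27) or spleen replicate 2 (-0.21). The labels describe a fresh preparation for both tissues, and the part of cell handling in these values was not tested.

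Across the 6 libraries, the 5 genes whose log2 CPM followed the sum of Hspa1a and Hspa1b most closely were Cracr2a, Celsr1, Rpl8, Prkcq and Sh2d2a, with Pearson coefficients of 0.9994 to 0.9998. Cracr2a stood at 83.7, 87.4 and 81.3 CPM in mLN and at 43.6, 44.3 and 42.7 CPM in spleen. Of 8833 genes compared, 1196 had a coefficient above 0.95, as any gene that is higher in mLN by much more than its spread will follow the 2 levels of the tissues.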

How the data were processed

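RNA was measured in 3 mLN and 3 spleen libraries. Libraries came from a directional kit, per the labels' protocols. STAR, RSEM and mm10 (assembly GRCm38) are named in the submitters' processing notes, and for versions, annotation and strand setting the entry is: not given in the sources used here. Gene tables were deposited for each library, with expected counts made by the authors, which split reads shared by transcripts, and with TPM, per the file headers. Expected counts were rounded, filtered with filterByExpr (14427 genes) and TMM-scaled. The test was edgeR 4.0.16 (quasi-likelihood F-test) in R 4.3.3 (robust, tissue as the only term), with Benjamini-Hochberg adjustment over all genes and a threshold of 0.05. Intervals use the F statistic and its degrees of freedom. TPM served for levels between genes, since it divides by effective length. Reads carry no molecular identifiers. GENCODE M21 gave a symbol to 55227 of 55487 identifiers. The members and lists were chosen with earlier results of these data known. Named genes are the members, the regulators Hsf1 and Hsf2, up to 2 called genes in each direction per list (with none called, the 2 of highest mean) and the 5 genes most like Hspa1a plus Hspa1b (mean of at least 10 CPM, log2 CPM with a prior count of 2). Promoter sequences are RefSeq's (GRCm38.p6) and were found for 7 of the 10 members. Coding sequences came from GENCODE transcripts and were aligned with Biopython 1.88. Alternatives were DESeq2 1.42.0, other scalings and filters, an effective-length offset (the authors' values), a replicate block, an assumed spread and leaving out each library.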

Additional observations from a re-analysis of the deposited data

How the results depend on the processing

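The count of chaperone genes higher in mLN was 8 in 14 of 15 alternatives, the exception being an assumed coefficient of variation of 0.2 (2 genes). With that spread 934 of all genes were called higher instead of 3139, and 2868 in either direction instead of 6569. No chaperone gene was called lower in any alternative. The summed Hspa1a and Hspa1b stayed called throughout, with log2 fold changes of 0.89 to 0.96 around 0.94 and adjusted p of at most 0.000765. Hsp90aa1 and Hspd1 were not called in any alternative, and their values near 0 changed sign in some. Hsp90aa1 was at -0.048 with library totals only, -0.0028 with no filter on low counts, -0.0021 with a stricter filter, and -0.0201 to 0.0219 on leaving out a library. Hspd1 was at -0.034 with library totals only and -0.0087 with the effective-length offset. On leaving out each library, 8 chaperone genes stayed higher, the Hspa1a and Hspa1b sum ran from 0.92 to 0.96, the inducible minus other difference from 0.22 to 0.27 (0.24 in all), and the genes called in all from 5854 to 6322. With the replicate number as a block, 8 chaperone genes were higher and the sum had a log2 fold change of 0.94. Deviations of same-numbered libraries had correlations of -0.0214 to 0.0182 over 9295 genes, and those of differently numbered libraries -0.0316 to 0.0269. The labels do not say what the numbers share, and the numbers were not used as pairs. The inducible minus other difference was not run with DESeq2, the offset, the block or the assumed spread, nor without Hspa1a and Hspa1b. With 3 libraries in each tissue and replicates of unknown origin, the spread between animals is not measured.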
